A study of Homo sapiens with 6 samples.

Results

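The genes described here are 10 pigment genes of human melanocytes: the enzyme genes TYR, TYRP1 and DCT, the melanosome structure genes PMEL and MLANA, the transporter genes OCA2, SLC45A2 and SLC24A5, and the receptor genes GPR143 and MC1R. They were chosen by name, and all 10 were found once among the 57688 rows of the deposited table of FPKM (fragments scaled to gene length and to library size). The cells were WM3248, an established line grown from a human primary melanoma. The siPGC1a group (3 libraries) had been transfected with an siRNA against PPARGC1A, the gene of the coactivator PGC1-alpha, and the siNC group (3 libraries) with AllStars, a commercial negative control siRNA. Each siRNA was used at 30 nM with a Lipofectamine reagent, and RNA was taken 48 h later. All cells had been grown with 2% serum, insulin, bovine pituitary extract, epidermal growth factor and calcium chloride. One cell line and 1 siRNA against PPARGC1A were used, and the labels do not tie the libraries to separate cultures. The p-values therefore cover only the spread seen among these libraries, which may be technical.

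Melanin is made inside melanosomes, organelles related to lysosomes. Tyrosinase (TYR) oxidises tyrosine to dopaquinone, the step that limits the rate of the pathway. Dopachrome tautomerase (DCT) converts dopachrome to a carboxylated indole, and TYRP1 acts on later indoles in the mouse and stabilises tyrosinase. The pigment is laid down on PMEL amyloid fibrils, and ion transporters in the melanosome membrane set the pH and calcium at which the enzymes work. The melanocortin receptor MC1R raises cAMP, which induces MITF, the transcription factor that binds E-box motifs of the M-box type at pigment genes. PGC1-alpha is known as an activator of MITF in human melanocytes and in a subset of melanomas.

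The promoters show which of these genes carry the MITF-type motif near a start. RefSeq promoter entries (GRCh38.p14) matched 8 of the 10 genes, all but PMEL and SLC45A2, and DCT had entries at an outer and an inner start. The 250 bases before each start were searched on both strands for 3 motifs. The first was the E-box CATGTG. The second, TCATGTG, is the core of the M-box and contains the first. The third was the palindromic E-box CACGTG. The first, CATGTG, was found in 7 of the 8 genes, against 11.5% of all 27305 genes with an entry. TCATGTG was found in 5 of the 8, namely TYR, TYRP1, DCT, SLC24A5 and GPR143, against 3.1% of all genes. CACGTG was found in 0 of the 8, against 7.7% of all genes. The windows of these 5 genes (for DCT, at the inner start) are shown because they hold the longer motif, and that of MLANA because it holds none of the 3, written 5′ to 3′ on the gene's strand up to the base before the start, with CATGTG or its reverse complement in capitals.
TYR (chr11:89177625-89177874, plus strand): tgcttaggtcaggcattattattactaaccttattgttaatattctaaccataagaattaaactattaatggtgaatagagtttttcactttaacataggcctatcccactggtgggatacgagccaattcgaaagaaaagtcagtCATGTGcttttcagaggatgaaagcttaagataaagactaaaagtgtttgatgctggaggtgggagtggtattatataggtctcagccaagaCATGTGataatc
TYRP1 (chr9:12693135-12693384, plus strand): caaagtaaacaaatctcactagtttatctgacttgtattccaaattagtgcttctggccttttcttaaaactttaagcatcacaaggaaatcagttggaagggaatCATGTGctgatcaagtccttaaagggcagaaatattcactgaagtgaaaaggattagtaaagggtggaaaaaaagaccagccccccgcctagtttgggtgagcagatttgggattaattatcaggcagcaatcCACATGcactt
DCT (chr13:94479683-94479932, minus strand): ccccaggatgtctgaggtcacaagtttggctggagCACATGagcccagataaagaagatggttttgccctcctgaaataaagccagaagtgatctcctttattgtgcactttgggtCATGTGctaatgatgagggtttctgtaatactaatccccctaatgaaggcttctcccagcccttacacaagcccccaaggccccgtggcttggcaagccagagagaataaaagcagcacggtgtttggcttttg
SLC24A5 (chr15:48120740-48120989, plus strand): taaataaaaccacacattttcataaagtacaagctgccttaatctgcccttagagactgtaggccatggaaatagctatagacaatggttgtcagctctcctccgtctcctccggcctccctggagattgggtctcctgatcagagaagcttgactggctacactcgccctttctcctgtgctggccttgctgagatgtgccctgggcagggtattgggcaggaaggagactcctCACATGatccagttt
GPR143 (chrX:9765848-9766097, minus strand): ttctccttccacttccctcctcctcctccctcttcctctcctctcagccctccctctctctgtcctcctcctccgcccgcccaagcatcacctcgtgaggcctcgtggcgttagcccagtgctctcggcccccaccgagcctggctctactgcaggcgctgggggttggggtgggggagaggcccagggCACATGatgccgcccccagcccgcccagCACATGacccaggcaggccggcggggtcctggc
MLANA (chr9:5890639-5890888, plus strand): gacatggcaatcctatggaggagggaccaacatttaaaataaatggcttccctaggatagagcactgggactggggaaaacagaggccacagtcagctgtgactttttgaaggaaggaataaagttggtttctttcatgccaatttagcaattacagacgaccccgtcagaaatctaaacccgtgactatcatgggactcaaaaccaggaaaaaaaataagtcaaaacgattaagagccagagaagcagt

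TYR held the motif 99 to 104 and 7 to 12 bases before its start, TYRP1 139 to 144 and 6 to 11 bases before, and DCT 129 to 134 and 210 to 215 bases before its inner start. In TYR and TYRP1 the copy farther from the start was the one inside TCATGTG, and in DCT both copies were. GPR143 held it 28 to 33 and 56 to 61 bases before its start and SLC24A5 10 to 15 bases before. OCA2 held CATGTG without the leading T 148 to 153 bases before its start, and MC1R 59 to 64 bases before. The window at the outer start of DCT held none. A match is a match of letters and was not tested as a binding site.

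**Figure D1:**
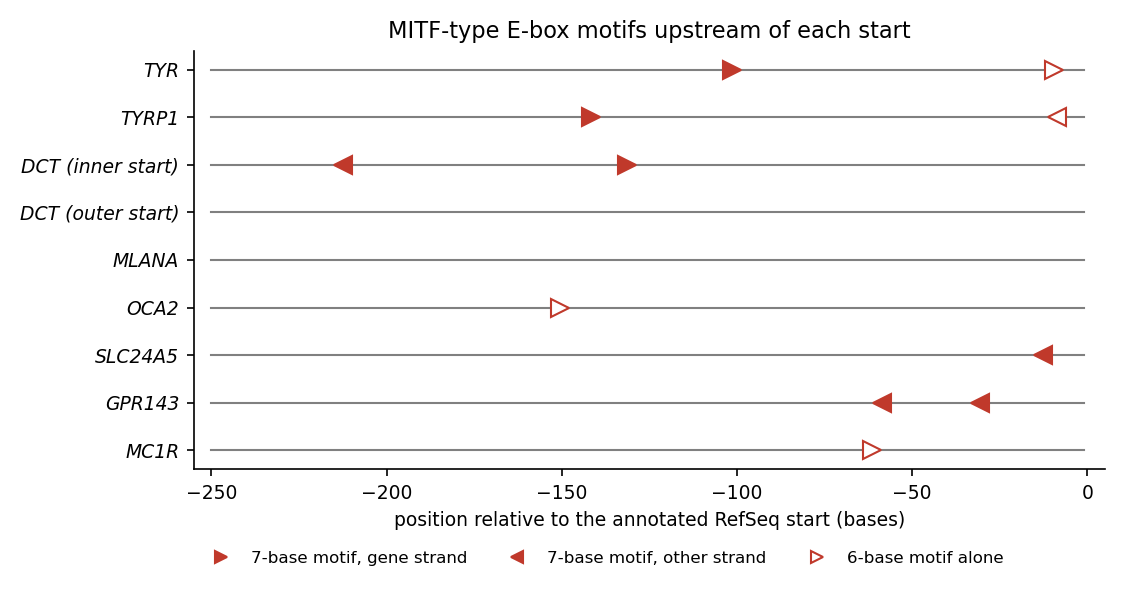
Positions of CATGTG matches (triangles, pointing along the strand of the match) in the 250 bases before each RefSeq start. The x axis is the position in bases relative to the start; filled triangles are matches inside TCATGTG and open ones are not. TYR, TYRP1, DCT at its inner start and GPR143 carry 2 matches each, and MLANA and the outer start of DCT carry none.

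Each library held 25180000 to 26440000 reads, as recovered from the steps of the FPKM values. On recovered reads, a chi-square per degree of freedom gave 1.89 to 5.42 for pairs of libraries within a group and 24.7 to 33.0 for pairs across groups, so none was taken for a duplicate. PPARGC1A stood at 0.4, 0.354 and 0.413 FPKM in the siPGC1a libraries, against 0.932, 1.04 and 0.947 FPKM in the siNC libraries. It was lower in every siPGC1a library (mean 0.389 ± 0.031 FPKM in siPGC1a against 0.974 ± 0.0597 FPKM in siNC libraries, SD, n = 3 each; limma adjusted p = 0.000234). Markers of the melanocyte lineage outside the 10 genes were present, with S100B at 923.9 ± 24.2 FPKM in siPGC1a and 801.9 ± 9.71 FPKM in siNC libraries and SOX10 at 230.0 ± 11.9 FPKM in siPGC1a and 246.3 ± 10.3 FPKM in siNC libraries (SD, n = 3 each). Of the 9 such markers listed, 8 were tested: 2 were higher (S100B and EDNRB), 3 were lower (ERBB3, MITF and TFAP2A) and 3 did not pass. KIT, below the filter, was at or below 0.07 FPKM in every library. Of the markers of other cells, PTPRC (leukocytes) and KRT1 (keratinocytes) were at 0 in every library. The endothelial list summed to at most 0.222 FPKM in siPGC1a and 0.362 FPKM in siNC libraries. The 7 fibroblast markers summed to 11.4 to 12.9 FPKM in siPGC1a and 17.3 to 18.2 FPKM in siNC libraries, and the 4 of them that were tested were all lower. None of the 7 was at 0 in every library. The 6 immune markers summed to 2.54 to 2.83 FPKM in siPGC1a and 3.06 to 3.39 FPKM in siNC libraries, and LYZ, the one of them that was tested, was lower. The 6 keratinocyte markers summed to 20.9 to 26.0 FPKM in siPGC1a and 20.5 to 21.5 FPKM in siNC libraries, nearly all of it KRT10, which did not pass. The counts of markers called stand beside 25.6% called higher and 22.5% called lower over all genes tested with limma. The part of these markers in the results below was not tested.

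DCT stood far above the other pigment genes. On the FPKM scale, which is per length and so allows levels of different genes to be compared, DCT made up 91.8 to 92.8% of the summed FPKM of the 10 genes in siPGC1a libraries and 94.3 to 94.5% in siNC libraries. By its mean over the 6 libraries it ranked 60th of all rows, at 323.6 FPKM. It was 195 to 243 times as high as TYR in siPGC1a libraries and 248 to 304 times in siNC libraries, and 213 to 371 times as high as TYRP1 in siPGC1a and 355 to 377 times in siNC libraries. SLC24A5 came next, with 6.758 to 7.63 FPKM over the 6 libraries, and did not overlap its neighbours in that order. PMEL and MC1R followed at means of 4.53 and 4.39 FPKM. MC1R was above PMEL in every siPGC1a library, and PMEL was above MC1R in every siNC library. Both share exons with other genes, so which of them is truly higher is uncertain. Over the 6 libraries, SLC45A2, MLANA, TYR and TYRP1 (means of 1.71, 1.44, 1.28 and 0.994 FPKM) each overlapped the next in the order. In siPGC1a libraries SLC45A2 lay above MLANA in every value, and in siNC libraries MLANA lay above TYR and TYR above TYRP1. GPR143 and OCA2 were lowest, at 0.248 and 0.244 FPKM, and could not be ordered.

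**Figure D2:**
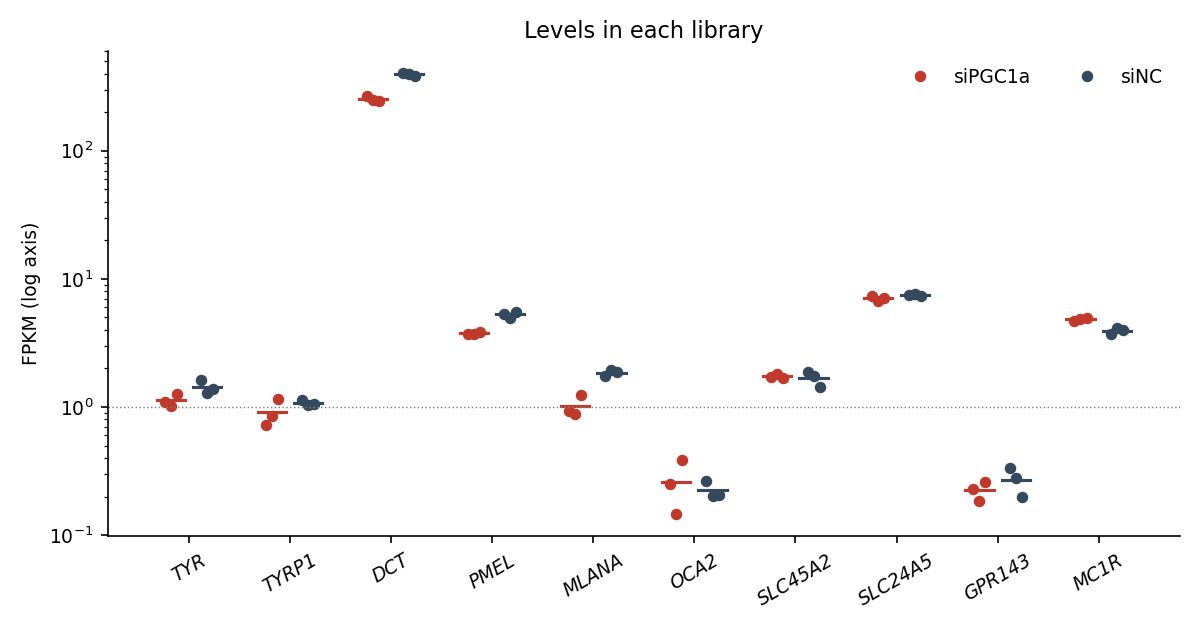
FPKM of each of the 10 genes (log axis) in the 3 siPGC1a libraries (red, left) and the 3 siNC libraries (dark, right). Points are libraries, short lines are group means and the dotted line marks the filter of 1 FPKM. DCT lies between 245.367 and 405.144 FPKM and every other gene at or below 7.63; DCT, PMEL, MLANA and TYR are lower in each siPGC1a library than in any siNC library, and MC1R is higher.

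The comparison asks which pigment transcripts differ once PPARGC1A is targeted. Genes with a mean of at least 1 FPKM were compared with limma on log2(FPKM + 1), a scale that understates the change of low genes, with p-values adjusted over all 12020 genes tested and a threshold of 0.05. Of the 10 genes 7 passed that filter, and TYRP1 (mean 0.994 FPKM), just under it, OCA2 and GPR143 did not. DCT, PMEL and MLANA fell, MC1R rose, and TYR, SLC45A2 and SLC24A5 did not pass the threshold. Across all genes tested 48.1% passed, 25.6% higher and 22.5% lower, so that the number of calls among these genes says little about them as a group. Groups did not overlap for 5 of the 7 genes tested (4 lower, 1 higher), against 57.2% of all genes tested (27.4% lower, 29.8% higher). For TYRP1, OCA2 and GPR143, below the filter, the groups overlapped. The median log2 fold change was -0.10 over the 10 genes, those below the filter included, and 0.0072 over all genes tested. In these bulk samples fewer cells of a type and less RNA per cell cannot be told apart.

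**Figure D3:**
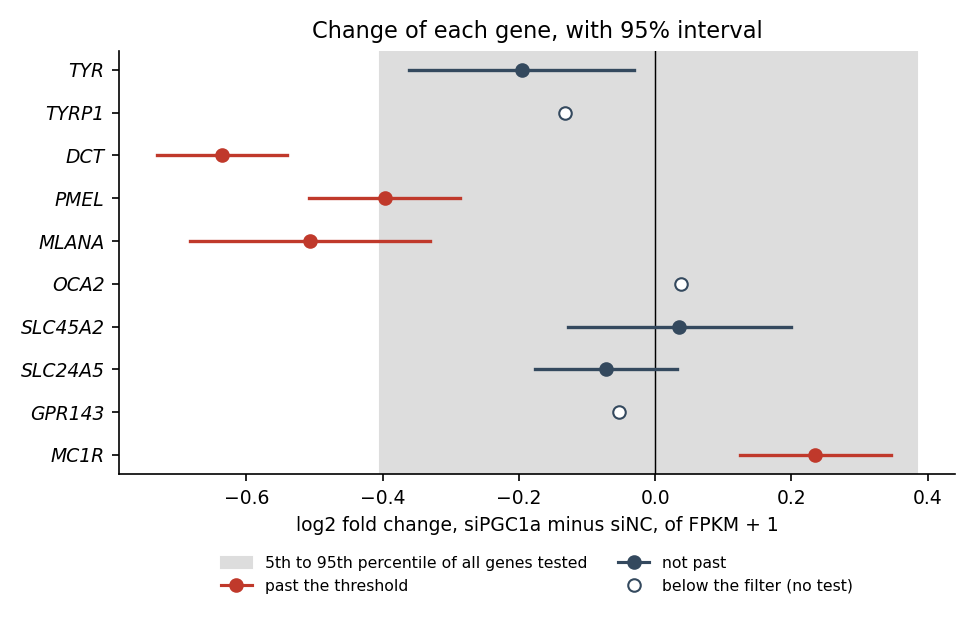
Log2 fold change of each gene, siPGC1a minus siNC, on log2(FPKM + 1), with the limma 95% interval before adjustment for the number of genes (bars). Red genes passed the adjusted threshold, dark ones did not, open circles were below the filter and have no interval; the grey band runs over the 5th to 95th percentile of all genes tested, -0.40 to 0.38. DCT at -0.64 and MLANA at -0.51 lie outside the band.

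Among the enzymes, DCT had 267.64, 246.96 and 245.367 FPKM in the siPGC1a libraries, against 405.144, 393.803 and 382.823 FPKM in the siNC libraries. The highest siPGC1a library was below the lowest siNC library by more than the range of either group. The means were 253.3 ± 12.4 FPKM in siPGC1a and 393.9 ± 11.2 FPKM in siNC libraries (SD, n = 3 each), so that the mean fell by 35.7%. Its log2 fold change was -0.64 (SE 0.0428, 95% interval -0.73 to -0.54, limma adjusted p = 5.89e-06), the 121st smallest p of all genes tested. An exact permutation test gave p = 0.1, which is the lowest value that 2 groups of 3 allow. About 46906 to 51601 reads per siPGC1a library and 72971 to 80801 per siNC library lay behind these values, so counting error was small beside the spread between libraries.

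TYR, tyrosinase, had 1.101, 1.026 and 1.259 FPKM in the siPGC1a libraries, against 1.634, 1.296 and 1.389 FPKM in the siNC libraries. The groups did not overlap, but the gap between siPGC1a replicate 3 and siNC replicate 2 was only 0.037 FPKM. The mean fell by 21.6% in siPGC1a libraries, and the change just missed the threshold (log2 fold change -0.20, SE 0.0739, limma adjusted p = 0.0517; exact permutation p = 0.1). Under 14 other settings its adjusted p ran between 0.033 and 0.178 and passed in 5, among them the fits without siNC replicate 2 (0.0438) and without siPGC1a replicate 3 (0.0382). TYRP1 had 0.722, 0.849 and 1.15 FPKM in siPGC1a libraries, against 1.142, 1.045 and 1.058 FPKM in siNC libraries. siPGC1a replicate 3 was above every siNC library and the other siPGC1a libraries were below every one of them (exact permutation p = 0.4). TYR rested on about 78 to 99 reads per siPGC1a library and 100 to 130 per siNC library, and TYRP1 on about 69 to 112 in siPGC1a and 100 to 113 in siNC libraries.

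The melanosome structure genes were both lower. PMEL, whose cleaved product forms the fibrils, had 3.741, 3.737 and 3.839 FPKM in the siPGC1a libraries, against 5.342, 4.988 and 5.529 FPKM in the siNC libraries. The groups were well apart, and the siPGC1a values lay within 0.102 FPKM of each other. PMEL fell by 28.6% in mean FPKM (log2 fold change -0.40, SE 0.0496, 95% interval -0.51 to -0.29, limma adjusted p = 0.000186; exact permutation p = 0.1). MLANA, also called MART-1, is a small melanosome membrane protein that PMEL needs for its maturation. It had 0.926, 0.876 and 1.246 FPKM in the siPGC1a libraries, against 1.742, 1.952 and 1.874 FPKM in the siNC libraries. No siPGC1a library reached any siNC library, although siPGC1a replicate 3 stood above the other siPGC1a libraries. MLANA fell by 45.3% in mean FPKM, the most in percent of the 10 genes, from about 68 to 100 reads per siPGC1a library, against 142 to 154 per siNC library (log2 fold change -0.51, SE 0.0784, 95% interval -0.68 to -0.33, limma adjusted p = 0.000639; exact permutation p = 0.1).

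The transporters did not pass the test. SLC24A5, a potassium-dependent sodium and calcium exchanger, had 7.411, 6.758 and 7.121 FPKM in siPGC1a libraries, against 7.52, 7.63 and 7.363 FPKM in siNC libraries. siPGC1a replicate 1 lay above siNC replicate 3, so the groups overlapped (log2 fold change -0.07, 95% interval -0.18 to 0.032, limma adjusted p = 0.229; exact permutation p = 0.2). SLC45A2, which acts on melanosome pH, had 1.724, 1.824 and 1.68 FPKM in siPGC1a libraries, against 1.889, 1.734 and 1.424 FPKM in siNC libraries. All siPGC1a values lay within the siNC range (log2 fold change 0.036, 95% interval -0.13 to 0.20, limma adjusted p = 0.71; exact permutation p = 0.9). The intervals of these 2 genes do not reach the size of the fall of DCT. OCA2, a melanosome membrane protein of anion transport, had 0.252, 0.146 and 0.389 FPKM in siPGC1a libraries, against 0.267, 0.204 and 0.207 FPKM in siNC libraries. These rest on about 12 to 33 reads per siPGC1a library and 17 to 23 per siNC library, and a change was not detectable at this depth (exact permutation p = 0.8).

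The receptors differed from each other in level. MC1R, the melanocortin receptor, had 4.717, 4.838 and 4.919 FPKM in the siPGC1a libraries, against 3.744, 4.142 and 3.967 FPKM in the siNC libraries. Every siPGC1a library was above every siNC library. MC1R rose by 22.1% in mean FPKM (log2 fold change 0.24, SE 0.0493, 95% interval 0.13 to 0.35, limma adjusted p = 0.00349; exact permutation p = 0.1). GPR143, the melanosome receptor altered in ocular albinism, had 0.231, 0.184 and 0.259 FPKM in siPGC1a libraries, against 0.335, 0.28 and 0.2 FPKM in siNC libraries. With about 12 to 17 reads per siPGC1a library and 13 to 22 per siNC library the groups overlapped, and a change was not detectable at this depth (exact permutation p = 0.4).

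DCT, which had the smallest limma p of the pigment genes tested, was set against each other gene by their ratio within a library, on log2 of FPKM + 1. The ratios reuse the values given above, so they describe how unequal the changes were and are not independent support. The ratio of DCT to MC1R was 5.55, 5.41 and 5.38 in siPGC1a libraries, against 6.42, 6.26 and 6.27 in siNC libraries, a difference of -0.87. Its groups did not overlap (exact permutation p = 0.1, the smallest possible). The ratio to SLC24A5 differed by -0.56, to SLC45A2 by -0.67 and to TYR by -0.44, each also with an exact permutation p of 0.1 and no overlap. These 4 ratios had no overlap without a pseudocount either, on the FPKM themselves, with differences of -0.93 for MC1R, -0.56 for SLC24A5, -0.70 for SLC45A2 and -0.29 for TYR. DCT therefore was lower relative to these 4 genes in every siPGC1a library than in any siNC library. The other ratios depended on the pseudocount. With a pseudocount of 1 the ratio to PMEL differed by -0.24 with no overlap (exact permutation p = 0.1), but DCT was 63.9 to 71.5 times as high as PMEL in siPGC1a libraries and 69.2 to 79.0 times in siNC libraries, which overlap (exact permutation p = 0.2 without a pseudocount). The ratios to TYRP1, OCA2 and GPR143 had no overlap with a pseudocount of 1, which is larger than the mean FPKM of these genes, and overlapped without it (exact permutation p = 0.3, 0.2 and 0.2). The ratio to MLANA differed by -0.13 with a pseudocount of 1 and by 0.25, in the other direction, without one, with overlapping groups both ways (exact permutation p = 0.4 each). In all, 8 of 9 ratios had no overlap with a pseudocount of 1, against 4 of 9 without one. The same count was not made for the ratio of DCT to all genes. The groups of DCT itself were far apart, so these counts say little about the other genes.

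**Figure D4:**
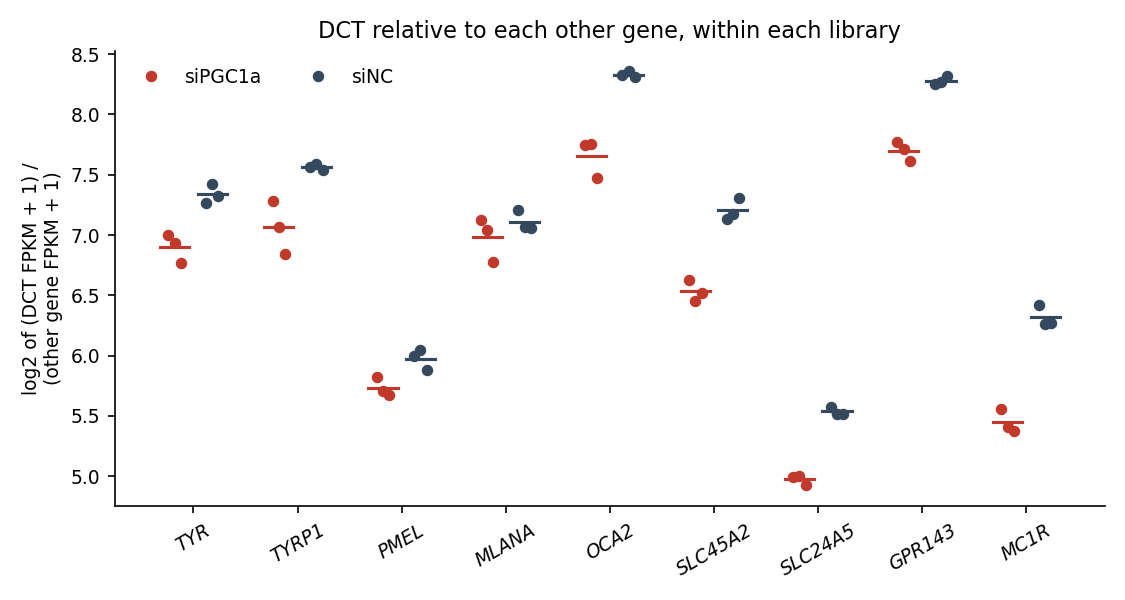
Log2 of (DCT FPKM + 1) over (FPKM + 1) of each other gene, within each siPGC1a library (red, left) and each siNC library (dark, right); short lines are group means. With this pseudocount of 1, all ratios but the one to MLANA are lower in each siPGC1a library than in any siNC library; without a pseudocount this holds for the ratios to TYR, SLC45A2, SLC24A5 and MC1R, and those to TYRP1, PMEL, MLANA, OCA2 and GPR143 overlap.

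Several of these genes share exons or a start region with another gene in GENCODE v29, and the sources used here do not give the strand setting of the counting. PMEL shares 89 exonic bases with CDK2, a cell cycle kinase gene on the opposite strand. CDK2 had 32.9 ± 1.96 FPKM in siPGC1a and 16.1 ± 0.695 FPKM in siNC libraries (SD, n = 3 each; limma adjusted p = 1.528e-06), a rise where PMEL fell. RAB5B, an endosome GTPase gene, starts 596 bases from PMEL on the opposite strand and rose as well, at 35.2 ± 0.733 FPKM in siPGC1a and 27.8 ± 0.403 FPKM in siNC libraries (limma adjusted p = 0.000109). SHROOM2, an actin-binding protein gene, starts 159 bases from the outermost start of GPR143 and fell, at 6.24 ± 0.538 FPKM in siPGC1a and 8.83 ± 0.125 FPKM in siNC libraries (limma adjusted p = 0.000211). MC1R shares 547 exonic bases with TCF25 on the same strand, 1192 with the readthrough gene AC092143.1, listed at 0 in every library, and 899 with AC092143.2 on the opposite strand. Reads in shared bases may have been dropped or split, so the level of MC1R is uncertain. TCF25 stood at 12.4 ± 0.221 FPKM in siPGC1a and 13.4 ± 0.262 FPKM in siNC libraries and did not pass (limma adjusted p = 0.0596). SLC24A5 shares 1574 exonic bases with MYEF2 on the opposite strand (2.38 ± 0.07 FPKM in siPGC1a and 2.71 ± 0.154 FPKM in siNC libraries, limma adjusted p = 0.0689) and is uncertain for the same reason. TYRP1 shares 102 bases with LURAP1L-AS1, which was at or below 0.454 FPKM in every library.

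A 6-base word, ACACCT, was counted in 3' UTRs because an earlier report on these same data had described it. The shares below are therefore a description and not independent support. Among genes tested with an annotated 3' UTR in GENCODE v29, the longest 3' UTR of the gene held it in 48.9% of genes called lower, in 22.8% of genes called higher and in 33.1% of genes that were not called. Of the 10 pigment genes 4 hold it: TYR, PMEL and MLANA at 1 place each and SLC24A5 at 2. The 3' UTR of DCT, 3090 bases long, and that of MC1R hold none. No other word was counted for comparison, and the length of the 3' UTR was not taken into account. The part of the word in these results was not tested.

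The factors that act on pigment genes went both ways. MITF fell to 5.52 ± 0.261 FPKM in siPGC1a libraries, against 7.24 ± 0.133 FPKM in siNC libraries (SD, n = 3 each; log2 fold change -0.34, limma adjusted p = 0.000335). SOX10 (limma adjusted p = 0.111) and PAX3, at 1.93 ± 0.0459 FPKM in siPGC1a and 1.99 ± 0.0464 FPKM in siNC libraries (limma adjusted p = 0.636), which both activate MITF, did not pass. Of 12 lineage regulators listed, 10 were tested, of which 3 rose, 3 fell and 4 missed the threshold, with a median log2 fold change of -0.066. Over all genes tested 25.6% were called higher and 22.5% lower. ZEB2, an E-box-binding factor, fell most, to 6.75 ± 0.253 FPKM in siPGC1a libraries, against 9.80 ± 0.0906 FPKM in siNC libraries (limma adjusted p = 2.95e-05), and TFAP2A fell to a ratio of 0.876. TFE3 and USF1, which bind E-boxes, and LEF1 rose 1.18-fold, 1.14-fold and 1.12-fold.

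Other genes of the melanosome were counted by role, and no list was tested as a set. Their counts stand beside 25.6% called higher and 22.5% called lower over all genes tested. Of 14 genes of melanosome ions, pH and metals, 12 were tested, and 7 rose, 1 fell and 4 did not pass, with a median log2 fold change of 0.17 against 0.0072 over all genes. ATOX1, the copper chaperone that hands copper to the pump ATP7A, rose to 21.8 ± 0.721 FPKM in siPGC1a, against 14.1 ± 0.304 FPKM in siNC libraries (SD, n = 3 each; limma adjusted p = 7.94e-06). SLC39A14, a zinc, iron and manganese importer, rose 1.27-fold (limma adjusted p = 0.000163). CTNS, the cystine exporter of lysosomes, was the gene that fell, to a ratio of 0.841 (limma adjusted p = 0.0103). Of 7 genes that process PMEL or resemble it, by limma 0 rose, 1 fell and 6 did not pass, and at an unadjusted p under 0.05 the counts were 0 higher and 1 lower. The one that fell was GPNMB, a melanosome glycoprotein related to PMEL, at 293.5 ± 3.51 FPKM in siPGC1a and 384.6 ± 6.08 FPKM in siNC libraries (limma adjusted p = 1.77e-05). BACE2, the protease that releases the PMEL fibril fragment, stood at 31.2 ± 0.983 FPKM in siPGC1a and 33.2 ± 0.699 FPKM in siNC libraries (limma adjusted p = 0.1).

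Of 20 subunits of the complexes that carry cargo to melanosomes (BLOC, AP-3 and partners), by limma 0 rose, 4 fell and 16 did not pass, with a median of -0.041, and at an unadjusted p under 0.05 the counts were 0 higher and 4 lower. AP3S2 fell to a ratio of 0.649, at 1.38 ± 0.0389 FPKM in siPGC1a against 2.12 ± 0.193 FPKM in siNC libraries (limma adjusted p = 0.000804), and HPS1 to a ratio of 0.853. AP3S2 is uncertain, since a readthrough gene with ARPIN shares its exons. In the melanocortin and cAMP pathway 20 of 27 genes were tested, with 3 higher, 8 lower and 9 not past, and a median of -0.085. The counts of this list and of the cargo complexes stand beside 25.6% called higher and 22.5% called lower over all genes tested. PRKACB, a catalytic subunit gene, fell to 4.44 ± 0.296 FPKM in siPGC1a libraries, against 6.28 ± 0.115 FPKM in siNC libraries (limma adjusted p = 0.000177), and the adenylyl cyclase gene ADCY7 to a ratio of 0.804. The more abundant catalytic subunit gene PRKACA did not pass, at 19.1 ± 1.31 FPKM in siPGC1a and 19.4 ± 0.533 FPKM in siNC libraries (limma adjusted p = 0.756). PRKAR1A, a regulatory subunit that restrains the kinase, rose to 47.6 ± 2.07 FPKM in siPGC1a libraries, against 40.6 ± 1.74 FPKM in siNC libraries (limma adjusted p = 0.00342), and SIK2, a kinase that restrains CREB coactivators, rose 1.15-fold. POMC and ASIP, the agonist precursor and the antagonist of MC1R, were listed at 0 in every library.

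**Figure D5:**
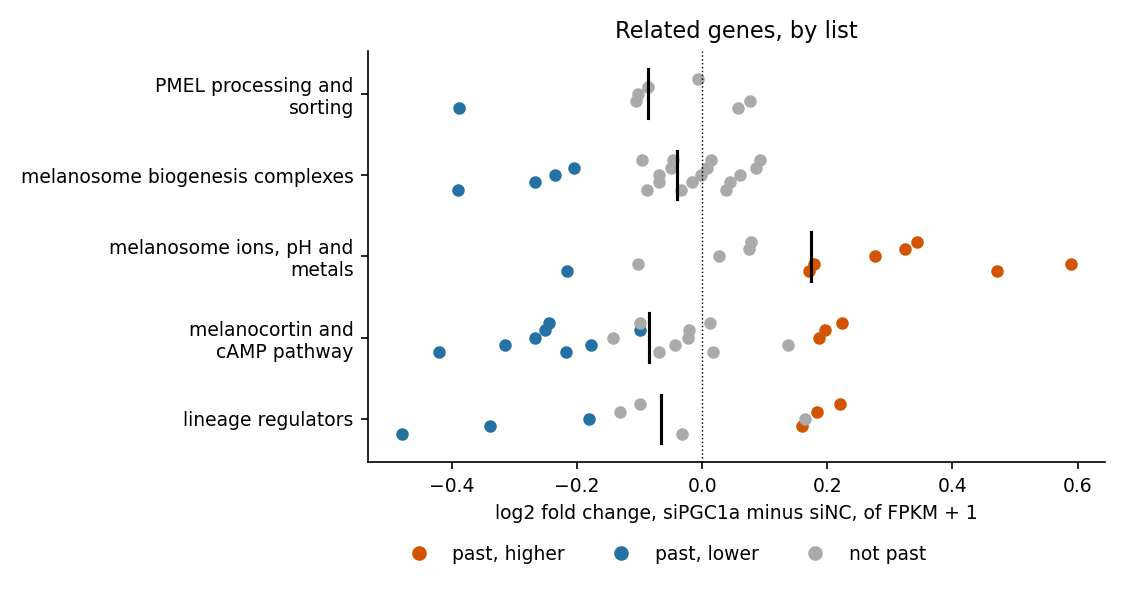
Log2 fold change, siPGC1a minus siNC on log2(FPKM + 1), of each tested gene of 5 related lists. Orange genes passed the threshold and were higher in siPGC1a, blue ones passed and were lower, grey ones did not pass; black bars are list medians, which run from -0.087 for PMEL processing to 0.17 for ions, pH and metals.

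The genes whose pattern lay nearest to that of DCT were found by the root-mean-square distance between centred log2(FPKM + 1) values over the 6 libraries. Among the nearest were ERAP1, AKAP6, PPP1R12B and CXCL16, at distances of 0.0207 to 0.0343, against a median of 0.333 over all genes tested. These genes were picked for their small distances, so the contrast with the median is a description only. ERAP1 had 10.3 ± 0.321 FPKM in siPGC1a and 16.4 ± 0.527 FPKM in siNC libraries (SD, n = 3 each). None of the other 9 pigment genes was among them, which says little about those genes. TYRP1, OCA2 and GPR143 were below the filter and were not searched. For the remaining pigment genes, all far below DCT in level, this scale understates the change.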

How the data were processed

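RNA sequencing was analysed in 6 libraries, 3 of siPGC1a and 3 of siNC cells. The deposited values were FPKM per gene and library, computed by the authors. Per the submitters' processing notes, the tools were STAR, Picard, featureCounts and DESeq2 and the build was hg19, with no roles given. Per the labels' protocols, the kit was TruSeq Stranded mRNA and reads were single. Depth was recovered from the FPKM steps of miRNA genes with exon lengths from GENCODE 29 (another build, used for lengths, overlaps and 3' UTRs): 96.7 to 100.0% of 58 to 70 values per library of at most 20 reads were within 0.1 of a whole read, where chance would give 20%. Reads per gene are approximate.

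Genes with a mean of at least 1 FPKM, plus PPARGC1A, were tested on log2(FPKM + 1) with limma-trend (limma 3.58.1, R 4.3.3; two-sided, no replicate block, Benjamini-Hochberg over 12020 genes), after a test on simulated data. Single genes and within-library ratios (pseudocount of 1, and none) had an exact two-sided permutation test. Named genes outside the 10 were PPARGC1A, MITF, SOX10, PAX3, LEF1, TFAP2A, up to 2 per direction of each related list, neighbours with shared exons or a nearby start, and genes nearest to DCT (of the 5 nearest, 1 is not reported here). BACE2, GPR143's neighbour SHROOM2, PRKACA, POMC, ASIP and the cell type markers were named for their role. The genes and lists were chosen with earlier results of these data known. Alternatives were other pseudocounts, filters, scalings, priors, weights, the replicate block and leaving out each library.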

Additional observations from a re-analysis of the deposited data

How the results depend on the processing

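DCT kept its direction and its call under 15 other settings (log2 fold change -0.68 to -0.57), and PMEL (-0.47 to -0.37), MLANA (-0.82 to -0.45) and MC1R (0.20 to 0.28) under the 14 that tested them. With a mean of at least 5 FPKM as the filter, only DCT and SLC24A5 of the 10 genes were tested, so PMEL, MLANA and MC1R were not. DCT was lower and SLC24A5 did not pass, so that 0 were higher and 1 lower. Of all 7271 genes then tested, 2519 were higher and 1607 lower. Leaving out each library in turn gave 1 gene of the 10 higher and 3 to 4 lower, and 2470 to 2896 higher and 2176 to 2513 lower over all genes. TYR was the gene that joined the lower ones, in 5 settings. SLC45A2 and SLC24A5 did not pass in any, and SLC45A2 changed sign without siNC replicate 3 (-0.036). With no filter, TYRP1 (adjusted p = 0.473), OCA2 (0.784) and GPR143 (0.56) were tested and did not pass. The difference in the ratio of DCT to MLANA changed sign with pseudocounts of 0.1 (0.19) and 0.5 (0.0065) and with none (0.25). The ratios with no pseudocount were added after seeing the data: 4 of 9 then had no overlap, against 8 of 9 with a pseudocount of 1, and 7 and 8 with 0.1 and 0.5. No such count was made over all genes. Median-of-ratios scaling gave 2857 higher and 2899 lower genes. Replicate numbers gave no clear sign of pairing. Same-numbered deviations correlated at 0.0766, 0.261 (the largest of all pairs) and -0.0575, and siPGC1a replicate 3 correlated best with siNC replicate 1 (0.253). Deviations from a mean of 3 libraries are bound to each other, so these values cannot exclude pairing. The replicate block gave 3253 higher and 2826 lower genes, with 1 and 3 of the 10. Depth limits OCA2 and GPR143, with 12 to 33 reads per library.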
